A study of Rattus norvegicus with 6 samples.

Results

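The vascular endothelial growth factor family was followed in rat brain through 9 genes, the ligands Vegfa, Vegfb, Vegfc and Pgf, the receptors Flt1, Kdr and Flt4, and the co-receptors Nrp1 and Nrp2. They were chosen by name from the 15168 gene symbols on the array, and every one of their 14 probes was kept. The 3 SPORTS rats belonged to a hyperactive mutant line whose rats run far in wheels of their own accord. The 3 rats they were compared with were wild type. All 6 were males of Wistar background, aged 15 weeks and sedentary, and none of the labels names a brain region or a gene altered in the line. Each rat gave 1 single-colour oligonucleotide array of whole brain RNA. With so few arrays the precision is limited, and p-values measure only the spread between these 3 and 3 samples. In bulk tissue, fewer cells of a type and less RNA per cell cannot be told apart.

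VEGF ligands are secreted dimers that act on receptor tyrosine kinases of endothelial cells. VEGF-A binds Flt1 and Kdr and drives vessel growth and permeability, mainly through Kdr, while VEGF-B and placental growth factor (the product of Pgf) bind Flt1. VEGF-C binds Flt4, the receptor of lymphatic endothelium, and also Kdr. The neuropilins are co-receptors that take up VEGF ligands as well as class 3 semaphorins, which guide axons. In brain, VEGF-A is made largely by astrocytes and neurons, and VEGF-B has been linked to neuron survival and, in muscle and heart, to fatty acid uptake across the endothelium.

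The members were picked with results of this same contrast known, above all the Vegfb difference, so their differences are given as a description with standard errors and no p. How many of them the fit over all probes called is counted beside the share called over the whole array, and supports nothing. The promoters of 3 ligands are shown as a description of their sequence only. They belong to Vegfb, which was not well above background in any SPORTS brain, to Vegfa, the principal ligand, and to Pgf, the other ligand of Flt1 that differed. Each is the stretch of 250 bases before the annotated start, taken from RefSeq (assembly GRCr8) and written 5′ to 3′ along the gene. Capitals mark GC boxes (GGGCGG or its reverse complement CCGCCC, both strands searched; overlapping boxes were not merged). The windows lie at chr1:213607153-213607402 on the minus strand for Vegfb, chr9:22452604-22452853 on the plus strand for Vegfa (the first of its RefSeq entries) and chr6:110557748-110557997 on the minus strand for Pgf.
Vegfb: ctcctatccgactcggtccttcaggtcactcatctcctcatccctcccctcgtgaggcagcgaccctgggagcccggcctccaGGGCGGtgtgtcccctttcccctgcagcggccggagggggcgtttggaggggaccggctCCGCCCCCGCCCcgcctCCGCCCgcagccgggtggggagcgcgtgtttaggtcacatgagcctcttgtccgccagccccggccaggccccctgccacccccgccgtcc
Vegfa: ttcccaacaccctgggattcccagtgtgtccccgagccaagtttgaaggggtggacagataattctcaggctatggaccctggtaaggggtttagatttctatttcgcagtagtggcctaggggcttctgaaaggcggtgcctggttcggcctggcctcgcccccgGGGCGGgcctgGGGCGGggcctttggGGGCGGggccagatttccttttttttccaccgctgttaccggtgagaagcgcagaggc
Pgf: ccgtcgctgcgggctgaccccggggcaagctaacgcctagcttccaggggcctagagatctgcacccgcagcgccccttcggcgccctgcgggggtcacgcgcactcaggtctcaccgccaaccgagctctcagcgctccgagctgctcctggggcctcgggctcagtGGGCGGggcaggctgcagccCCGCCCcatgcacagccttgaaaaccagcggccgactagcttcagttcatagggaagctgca
The Vegfb window held 4 GC boxes at a GC content of 73.2%, the Vegfa window 3 at 60.4% and the Pgf window 2 at 69.2%, against a median GC content of 51.2% over all promoters. All 9 members had a promoter entry, and 7 had at least 1 GC box, a motif found in 30.5% of 33469 promoters of that length. The core of the hypoxia response element (ACGTG or CACGT) was in none of the windows of the 9 members and in 16.6% of all promoters. A TATA box (TATAAA or TTTATA) was present in 1 member, Flt1, and in 12.9% of all. These matches describe the letters of the windows only, and the arrays hold no measurement of binding at them.

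Signals are normalised log2 values in which 0 is the 75th percentile of the array, differences are SPORTS minus wild type, and levels are not compared between probes. A probe was tested if 1 line or both had it well above background on all 3 arrays. Between 20323 and 23261 of 30367 probes reached that level per array, and none was saturated. Arrays of 1 line correlated at 0.995 to 0.997 across probes and arrays of different lines at 0.987 to 0.991. All 6 arrays lay on 1 slide. The 3 SPORTS arrays and wild type 3 lay in its row 2, and wild type 1 and 2 lay in its row 1. The value with slide row as a block therefore rests on wild type 3 alone, and it is printed where it matters. SPORTS 1 stood apart in choroid plexus markers, with a summed signal of 113000 against at least 223000 on each wild type array. Without it the Vegfb difference was -8.31 and that of Pgf 0.48. Across the array, 4364 of 20658 tested probes passed an adjusted p of 0.05 (limma), which is 21.1%, and 41.9% had groups that did not overlap.

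Of the 14 family probes, 11 were tested and represented 8 genes, while the single Nrp2 probe and the second probes of Pgf and Flt4 were too dim in both lines. The threshold was passed by 2 of the 11 tested probes, Vegfb (lower) and Pgf (higher), beside 21.1% of all tested probes in either direction, 10.1% lower and 11.1% higher. With slide row as a block, 2 family probes were lower (Vegfb and Flt1) and 0 higher, beside 7.73% of all probes. Because the family was chosen on this contrast, nothing is read from that share. The other 9 tested probes differed by -0.54 to 0.21, and 8 of the 11 lay within 0.25 of 0. Their median difference was -0.01, against -0.002 over all tested probes. Groups did not overlap for 4 of the 11 tested probes, beside 41.9% of all tested probes.

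**Figure D1:**
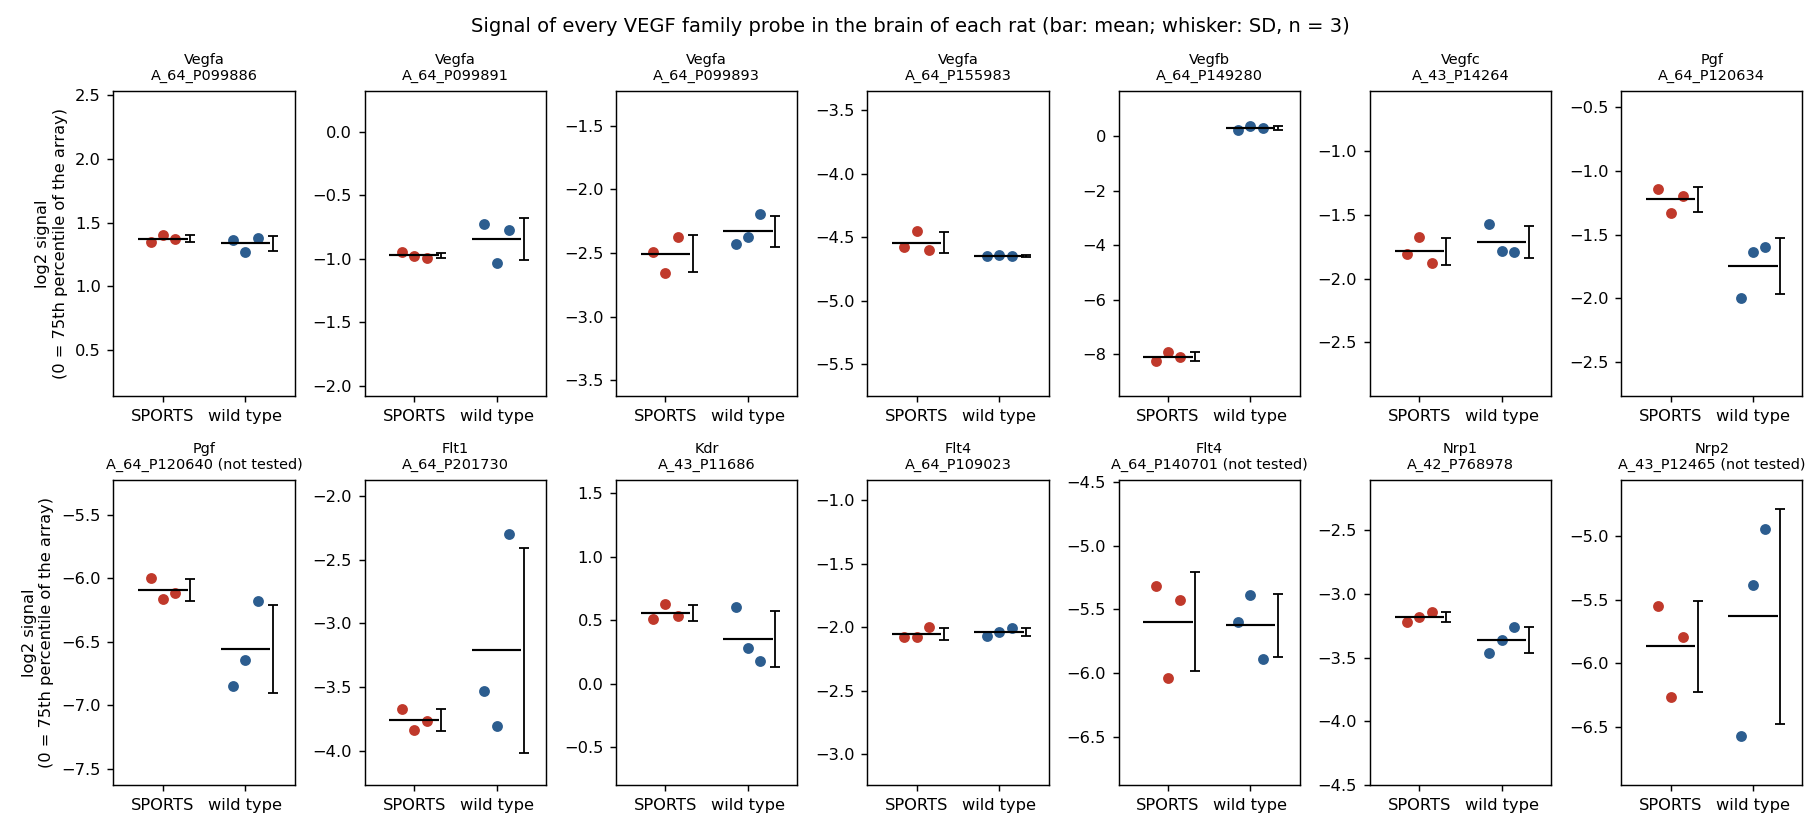
Normalised log2 signal (0 is the 75th percentile of the array) of each of the 14 family probes, 1 point per rat, SPORTS (red) left of wild type (blue), with the mean as a bar and the SD as a whisker (n = 3 each). Each panel has its own vertical range. Vegfb stands at -8.25 to -7.93 in SPORTS and at 0.24 to 0.37 in wild type, and in no other panel are the lines so far apart.

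Vegfb, the ligand of Flt1, was present in every wild type brain and not well above background in any SPORTS brain. Its single probe, A_64_P149280, read -8.25, -7.93 and -8.10 in SPORTS rats 1 to 3, against 0.24, 0.37 and 0.29 in wild type rats 1 to 3. Its 3 SPORTS arrays all lay far below its 3 wild type arrays. The means were -8.09 ± 0.16 in SPORTS and 0.30 ± 0.06 in wild type (SD, n = 3 each), a difference of -8.39 ± 0.09 (SE). The SPORTS processed signals of 5.19, 6.48 and 6.07 stood beside negative-control medians of 4.74, 6.26 and 3.67 on those arrays. The SPORTS SD, and with it the SE, thus does not measure the spread of Vegfb between SPORTS rats. Because no SPORTS array measured the probe above background, the fold is a bound. The signal of the Vegfb probe was at least 93.8-fold lower in SPORTS. For this bound the SPORTS level was set to the lowest signal that counted as well above background on each array. The bound holds on the scale of the processed signal, and after normexp background correction the difference was -4.72.

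The spots behind that value were looked at one by one. The probe is printed in 2 spots per array, in grid rows 56 and 63. Their unprocessed brightness was 50 to 62 scanner units over the 6 SPORTS spots, against 1739 to 2224 over the 6 wild type spots. The SPORTS spots were thus near the bottom of the scale, and both positions showed the same picture. The median of the 308 negative-control spots was 40, 40.5 and 40 on the SPORTS arrays and 37, 40 and 41.5 on the wild type arrays. All 6 SPORTS spots were brighter than the 95th percentile of those controls on their own array, while after background subtraction 2 of the 6 exceeded it. The SPORTS spots were thus slightly brighter than blank spots before background subtraction, and below the level that the scanner software calls well above background. No outlier flag was set on any of the 12 Vegfb spots.

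The surroundings of the Vegfb spots did not share the difference. Within 2 grid steps of the row 56 spot, 15 of 21 neighbouring spots were above background on all 6 arrays, and their differences had a median of -0.02 (-0.45 to 0.76). Around the row 63 spot, 14 of 22 neighbours were, with a median of -0.07 (-0.41 to 0.40). The array carries no other Vegfb probe, so the difference could not be compared with a second stretch of the transcript. Whether the stretch that this probe reads differs in sequence between the lines was not tested.

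**Figure D2:**
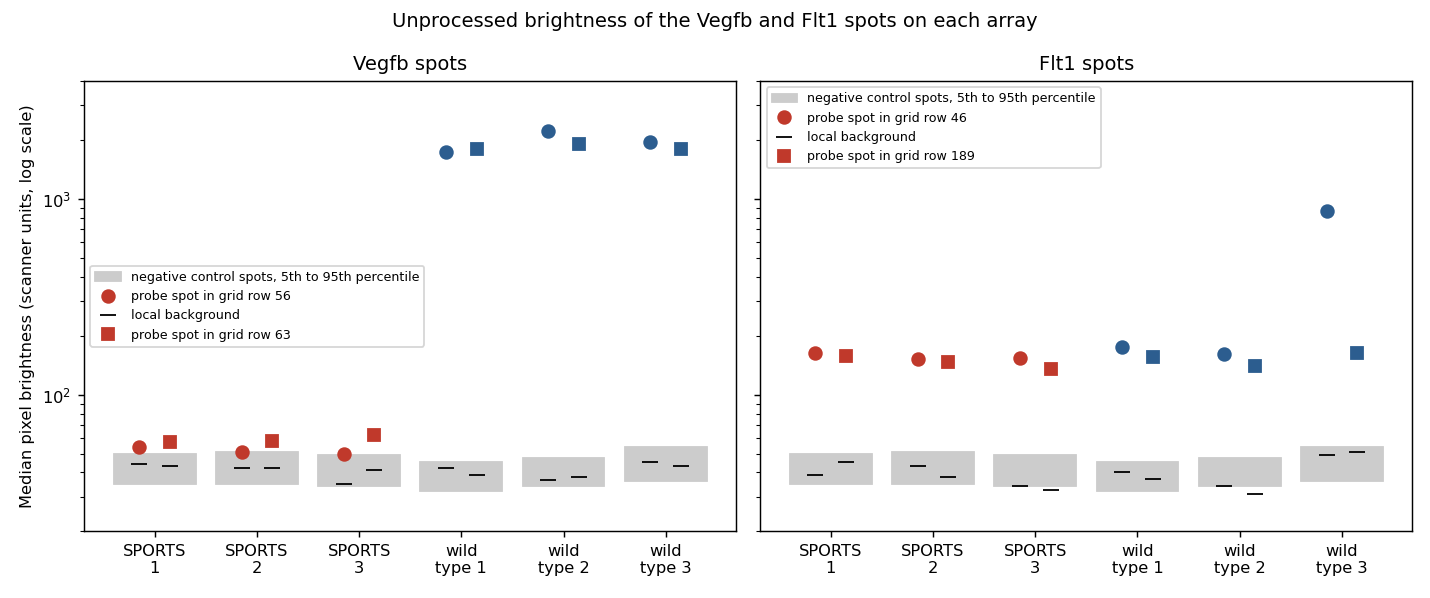
Unprocessed median brightness (scanner units, log axis) of both Vegfb spots (left) and both Flt1 spots (right) on each array, SPORTS in red and wild type in blue, circle and square for the grid rows given in the legend. Grey boxes span the 5th to 95th percentile of negative-control spots and short lines are the local background. The 6 SPORTS Vegfb spots read 50 to 62, just above the grey boxes, and 1 of the Flt1 spots on wild type 3 reads 864 while its partner reads 164.

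Vegfa, the principal angiogenic ligand, had small differences at each of its 4 probes. Its probe A_64_P099886 read 1.35, 1.40 and 1.37 in SPORTS, against 1.36, 1.27 and 1.38 in wild type. These values overlap, and the difference was 0.04 ± 0.04 (SE). Probe A_64_P099891 read -0.95, -0.98 and -0.99 in SPORTS, against -0.73, -1.03 and -0.77 in wild type, a difference of -0.13 ± 0.09 that became -0.23 without wild type 2 and -0.07 without wild type 1. Wild type 2 lay below all 3 SPORTS arrays and the other 2 wild type arrays above them. The single-spot probe A_64_P099893 read -2.49, -2.66 and -2.37 in SPORTS and -2.43, -2.37 and -2.19 in wild type, a difference of -0.18 ± 0.10 with overlapping groups, which was -0.32 with slide row as a block and -0.10 without SPORTS 2. The dim probe A_64_P155983 read -4.58, -4.45 and -4.60 in SPORTS, against -4.65, -4.64 and -4.65 in wild type. All its SPORTS arrays were above its wild type arrays, by 0.11 ± 0.05, or 0.06 without SPORTS 2. The 4 Vegfa probes thus split, 2 with a positive and 2 with a negative difference.

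Vegfc, the lymphangiogenic ligand of Flt4, read -1.81, -1.67 and -1.88 in SPORTS, against -1.57, -1.78 and -1.79 in wild type. The groups overlapped and the difference was -0.07 ± 0.08, or -0.13 without SPORTS 2. Its relative Vegfd, which is no member of the set but also binds Kdr and Flt4 in humans, was not well above background on any array, at -8.36, -7.96 and -8.67 in SPORTS and -8.77, -8.59 and -7.88 in wild type.

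Pgf, which encodes placental growth factor, was the family's probe with the largest positive difference. Probe A_64_P120634 read -1.14, -1.33 and -1.20 in SPORTS, against -2.00, -1.64 and -1.60 in wild type. Every SPORTS array was above every wild type array, and wild type 1 was the lowest of all. The means were -1.22 ± 0.10 in SPORTS and -1.75 ± 0.22 in wild type (SD, n = 3 each), and the difference of 0.52 ± 0.12 (SE) corresponds to 1.44-fold. With slide row as a block the difference was 0.38, and without 1 array it ran between 0.40 (without wild type 1) and 0.59 (without wild type 3). The other Pgf probe, A_64_P120640, was not well above background in either line. It read -6.00, -6.16 and -6.12 in SPORTS and -6.85, -6.64 and -6.18 in wild type.

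Flt1, the receptor that VEGF-A, VEGF-B and placental growth factor share, differed in 1 array only. Its probe A_64_P201730 read -3.67, -3.84 and -3.77 in SPORTS, against -3.53, -3.81 and -2.30 in wild type. Wild type 3 stood apart, and the other 5 arrays lay between -3.84 and -3.53. The difference over all arrays was -0.54 ± 0.39. Without wild type 3 it was -0.08. With slide row as a block, where wild type 3 is the only wild type array in the row, it was -1.46.

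The high Flt1 value came from 1 spot. On wild type 3 the spot in grid row 46 had a processed signal of 902 and the spot in grid row 189 had 115, with no outlier flag on either. Each of the other arrays had its pair of Flt1 spots within 1.19-fold of each other, against 7.84-fold on wild type 3. Among 10950 probes with a pair of measured spots on that array, 18 had a ratio that large. Taken from the row 189 spot alone, Flt1 averaged -3.81 ± 0.07 in SPORTS and -3.78 ± 0.17 in wild type (SD, n = 3 each), a difference of -0.03. Taken from the row 46 spot alone the difference was -1.05, with a wild type SD of 1.6. Around the row 46 spot, 6 of 16 measured neighbouring spots were more than 2-fold brighter on wild type 3 than on every other array, and none were on the other 5 arrays. The Flt1 values by spot were computed after the data had been seen.

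Kdr, the main signalling receptor of VEGF-A, read 0.51, 0.63 and 0.53 in SPORTS, against 0.60, 0.28 and 0.18 in wild type. Wild type 1 lay among the SPORTS arrays and the other wild type arrays below them. The difference was 0.21 ± 0.11. It was 0.38 with slide row as a block, 0.33 without wild type 1 and 0.12 without wild type 3.

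Flt4, the receptor of VEGF-C, was nearly the same in all 6 brains. Probe A_64_P109023 read -2.08, -2.08 and -2.00 in SPORTS and -2.07, -2.04 and -2.01 in wild type, a difference of -0.01 ± 0.04. Its second, single-spot probe, A_64_P140701, was above background on 2 of 3 arrays in each line. There the values were -5.32, -6.04 and -5.43 in SPORTS and -5.60, -5.39 and -5.89 in wild type, with overlapping groups.

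Nrp1, the co-receptor that also binds class 3 semaphorins, was the most densely printed member, with 10 spots per array. It read -3.22, -3.18 and -3.14 in SPORTS, against -3.46, -3.36 and -3.26 in wild type. All SPORTS arrays were above all wild type arrays by a small margin, and the difference was 0.18 ± 0.06. With slide row as a block it was 0.08. The single spots overlapped between the lines, with processed signals of 157 to 224 in SPORTS and 133 to 219 in wild type. Nrp2, its paralogue, was above background on 2 of 3 arrays in each line and varied widely, at -5.55, -6.26 and -5.79 in SPORTS and -6.57, -5.38 and -4.94 in wild type, so its difference of -0.24 ± 0.47 was smaller than its error.

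**Figure D3:**
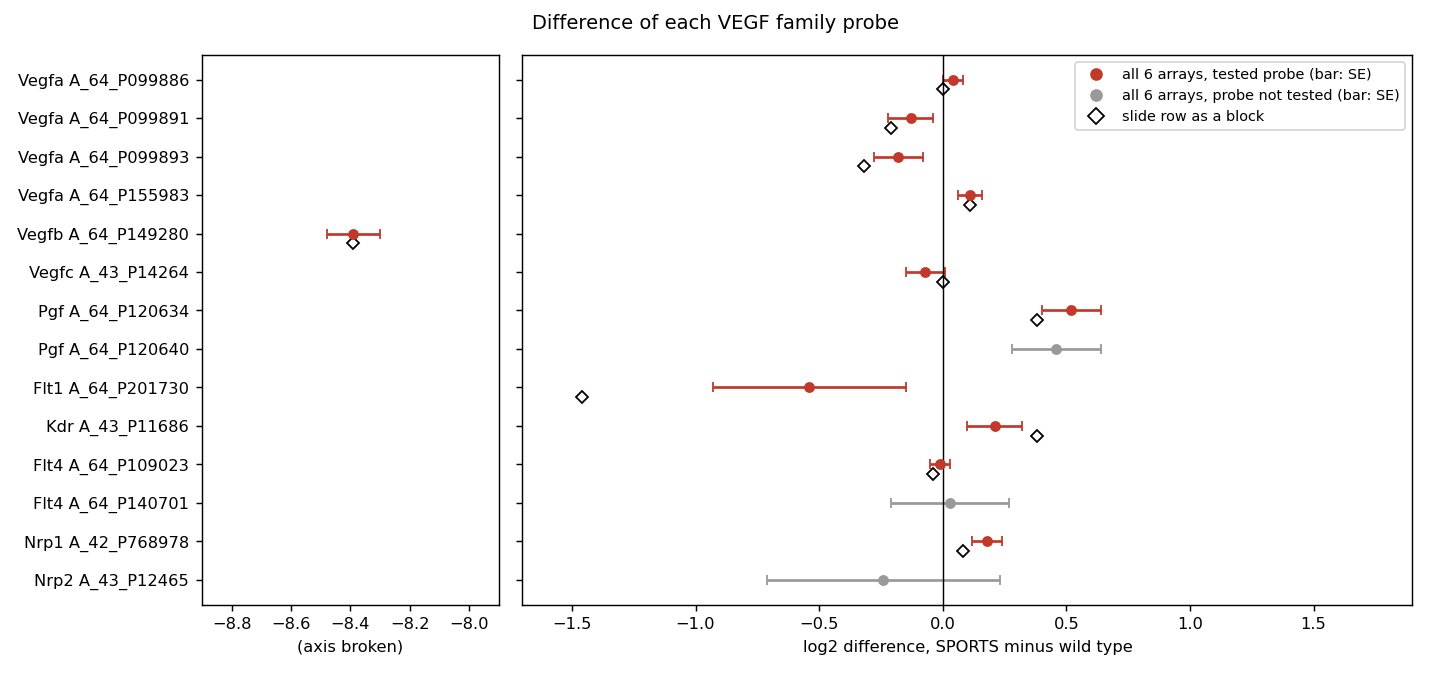
Difference in log2 signal, SPORTS minus wild type, of each family probe, with the SE of the fit as a bar (grey where the probe was not tested). Open diamonds give the value with slide row as a block. Vegfb at -8.39 is on a separate axis to the left; the other tested probes lie between -0.54 (Flt1) and 0.52 (Pgf), and the diamond of Flt1 lies at -1.46.

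The genes next to Vegfb on the chromosome were compared in RefSeq order, 10 on each side. Of these 20 genes 15 were tested, and their differences ranged between -0.24 and 0.29 with a median of 0.02. The threshold was passed by 1 gene in each direction, against 24.3% of all tested genes in either direction. Macrod1, which encodes an enzyme that removes ADP-ribose, rose by 0.29 ± 0.07 (limma adjusted p = 0.033, and 0.22 with the slide block). Kcnk4, a potassium channel gene, had a difference of -0.24 ± 0.04 (adjusted p = 0.0143, and 0.101 with the block). The genes directly beside Vegfb did not pass. Fkbp2 differed by 0.13 ± 0.04 (adjusted p = 0.0691) and Dnajc4 by 0.01 ± 0.04 (adjusted p = 0.931).

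**Figure D4:**
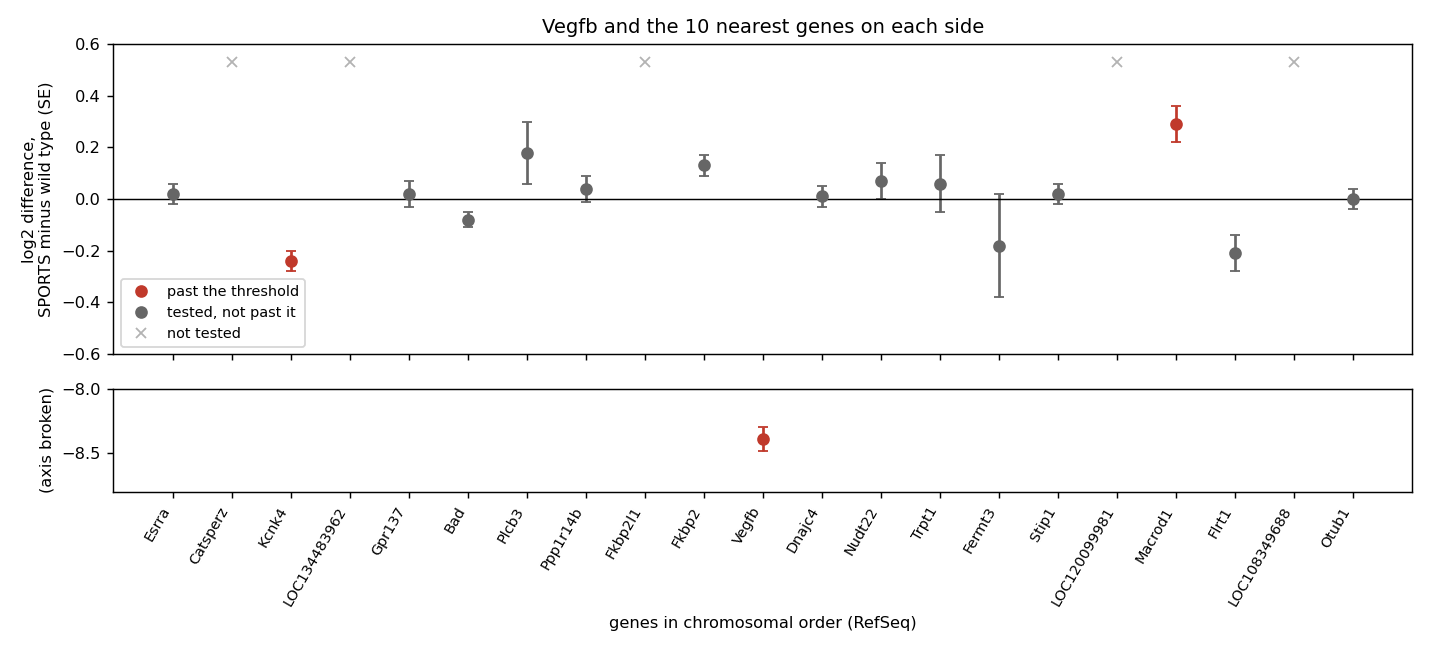
Difference in log2 signal, SPORTS minus wild type, with its SE, of Vegfb and the 10 nearest genes on each side in RefSeq order. Crosses at the top of the upper panel mark genes that were not tested and stand for no value. The vertical axis is broken: the 15 tested neighbours lie between -0.24 and 0.29, and Vegfb lies at -8.39.

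The pattern of Vegfb, well above background on all 3 wild type arrays and on no SPORTS array, was shown by 25 probes, 20 of them with a gene symbol. The reverse pattern was shown by 22 probes. Likeness to Vegfb was measured by these detection calls over the 6 arrays, and the genes named are 5 others, taken by their fitted differences. Their SPORTS values lie at background, so no order is read among them. Their SEs, like that of Vegfb, do not measure the spread between SPORTS rats. They were Klkb1 (plasma prekallikrein) at -4.21 ± 0.12, Dnase1 (a secreted deoxyribonuclease) at -3.41 ± 0.09, Krt6c (a keratin) at -3.36 ± 0.29, Or10j3b (an olfactory receptor) at -3.18 ± 0.19 and Vill (a villin-like protein) at -3.12 ± 0.21. Against the lowest measurable signal they were at least 5.21-fold, 3.54-fold, 2.09-fold, 1.98-fold and 2.20-fold lower in SPORTS, in that order. Each bound depends on the wild type level of its probe. Vegfb was picked for its difference, so its bound of 93.8-fold is not ranked against these.

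The rest of the pathway was described through 5 lists with 158 genes in all, of which 126 were tested. In SPORTS, 14 rose and 23 fell. Their median difference was 0, against 0.007 over all tested genes, and 29.4% passed the threshold, against 24.3% of all tested genes. With slide row as a block 5 were higher and 4 lower, when 8.34% of all genes passed. Without SPORTS 1, 4 were higher and 16 lower. In the signalling list downstream of the receptors, 4 of 48 tested genes rose and 12 fell (median -0.02). This is 33.3% called, beside 24.3% of all tested genes in either direction, 12.9% higher and 11.4% lower. Yes1, a Src family kinase, rose by 0.68 ± 0.11 (adjusted p = 0.0091). Ppp3ca, the catalytic subunit of calcineurin, differed by -0.35 (adjusted p = 0.0145), Prkcb, a protein kinase C, by -0.32 (adjusted p = 0.00776) and Pik3r1, the regulatory subunit of PI 3-kinase, by -0.29 (adjusted p = 0.00776). The calls of these 4 named genes ended with the slide block, where their differences were 0.59, -0.28, -0.32 and -0.29 in that order. Nos3, a called gene of the list outside these 4, rose by 0.24 ± 0.06 (adjusted p = 0.0326), and by 0.33 with the block. Pik3cd differed by -0.85 ± 0.35 (adjusted p = 0.145), and by -1.66 with the block. It read -4.35 in wild type 3, against -5.60 and -5.52 in wild type 1 and 2. The Ppp3ca call also ended without SPORTS 2 or SPORTS 3 (adjusted p = 0.053 to 0.0549).

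Genes of hypoxia-inducible transcription, which sets Vegfa levels under low oxygen, showed 2 rises and 3 falls among 29 tested (median -0.01). The called share was 17.2%, beside 24.3% of all tested genes. Adm, a vasodilator peptide gene and a hypoxia target, rose by 0.62 ± 0.08 (adjusted p = 0.00591, and 0.0127 with the block). Ldha, lactate dehydrogenase A, differed by -0.28 (adjusted p = 0.0134), Ndrg1 by 0.23 (adjusted p = 0.0257) and Ankrd37 by -0.22 (adjusted p = 0.0354). With the block these 3 had an adjusted p of 0.0855, 0.163 and 0.145. The Ldha call ended without SPORTS 2 (adjusted p = 0.053). That of Ndrg1 ended without any 1 SPORTS array or wild type 3, and that of Ankrd37 without any 1 array but wild type 1 (adjusted p = 0.0658 to 0.108).

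Class 3 semaphorins, plexins, adhesion molecules and the adaptor gene Gipc1 were listed as neuropilin partners. Whether each of them acts through Nrp1 or Nrp2 was not tested. Among them none of 13 tested genes rose and 4 fell (median -0.01). This is 30.8% called, beside 24.3% of all tested genes in either direction and 11.4% lower. Of the 13 differences, 6 lay above 0 and 7 below. With slide row as a block their median was -0.07. Sema3d then differed by 0.46, against 0.28 (adjusted p = 0.0902) without the block. Sema3c, a class 3 semaphorin, differed by -0.46 (adjusted p = 0.00971), Plxna2, a plexin receptor, by -0.23 (adjusted p = 0.0181) and Gipc1, an adaptor of Nrp1, by -0.15 (adjusted p = 0.0443). With the block their adjusted p was 0.091, 0.123 and 0.164. The Plxna2 call ended without SPORTS 2, SPORTS 3 or wild type 3, and the Gipc1 call without any 1 array but SPORTS 1 (adjusted p = 0.0522 to 0.14). Nrcam, a neuronal adhesion molecule, differed by -0.52 ± 0.06 at its brightest probe (adjusted p = 0.00433), and by -0.61 with the block. Its other probes gave -0.02 and 2.15 ± 0.07 (adjusted p = 8.4e-05 for the second), so that the mean of its probes was 0.54 and the direction turned.

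Angiopoietin, Tie, Notch and other endothelial growth signals had 7 rises and 1 fall among 27 tested (median 0.08). Their called share was 29.6%, beside 24.3% of all tested genes in either direction and 12.9% higher. Jag1, a Notch ligand, rose by 0.32 (adjusted p = 0.00856, and 0.0705 with the block), Tgfbr2, a TGF-beta receptor, by 0.36 (adjusted p = 0.0498, and 0.0891 with the block) and Thbs2, an antiangiogenic matrix protein, by 0.34 (adjusted p = 0.0457, and 0.0117 with the block). Dll4, the Notch ligand of tip cells and a target of VEGF signalling, differed by -0.35 (adjusted p = 0.0264, and 0.0819 with the block). The Tgfbr2 call ended without any 1 array, the Dll4 call without any 1 array but wild type 2, and the Thbs2 call without any 1 SPORTS array or wild type 2 (adjusted p = 0.0509 to 0.125). After normexp Tgfbr2 differed by 0.12 and Dll4 by -0.17, both without a call (adjusted p = 0.151 and 0.066), and with the block Thbs2 differed by 0.54.

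Fatty acid uptake genes, which VEGF-B has been linked to in muscle and heart of mice, showed 1 rise and 3 falls among 9 tested (median 0.01). In this short list 44.4% were called, beside 24.3% of all tested genes. Cd36, a fatty acid transporter of endothelium, read -5.68, -5.94 and -5.55 in SPORTS, against -5.00, -5.01 and -4.82 in wild type, and was above background on 2 of 3 SPORTS arrays. Its difference was -0.78 ± 0.11 (adjusted p = 0.007, and 0.0378 with the block), and -0.25 after normexp. Lpl, lipoprotein lipase, differed by -0.57 ± 0.07 (adjusted p = 0.00434, and 0.0508 with the block), and Fabp3, a fatty acid binding protein, by -0.28 ± 0.04 (adjusted p = 0.00483, and 0.0483 with the block). Slc27a1, a fatty acid transport protein, rose by 0.27 ± 0.06 (adjusted p = 0.0232). With the block it differed by 0.18 and its call ended. The Slc27a1 call also ended without SPORTS 1, SPORTS 2, wild type 1 or wild type 2 (adjusted p = 0.0599 to 0.079). Of the other transport proteins tested, Slc27a3 differed by 0.14 (adjusted p = 0.18) and Slc27a4 by -0.09 (adjusted p = 0.314), without a call.

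**Figure D5:**
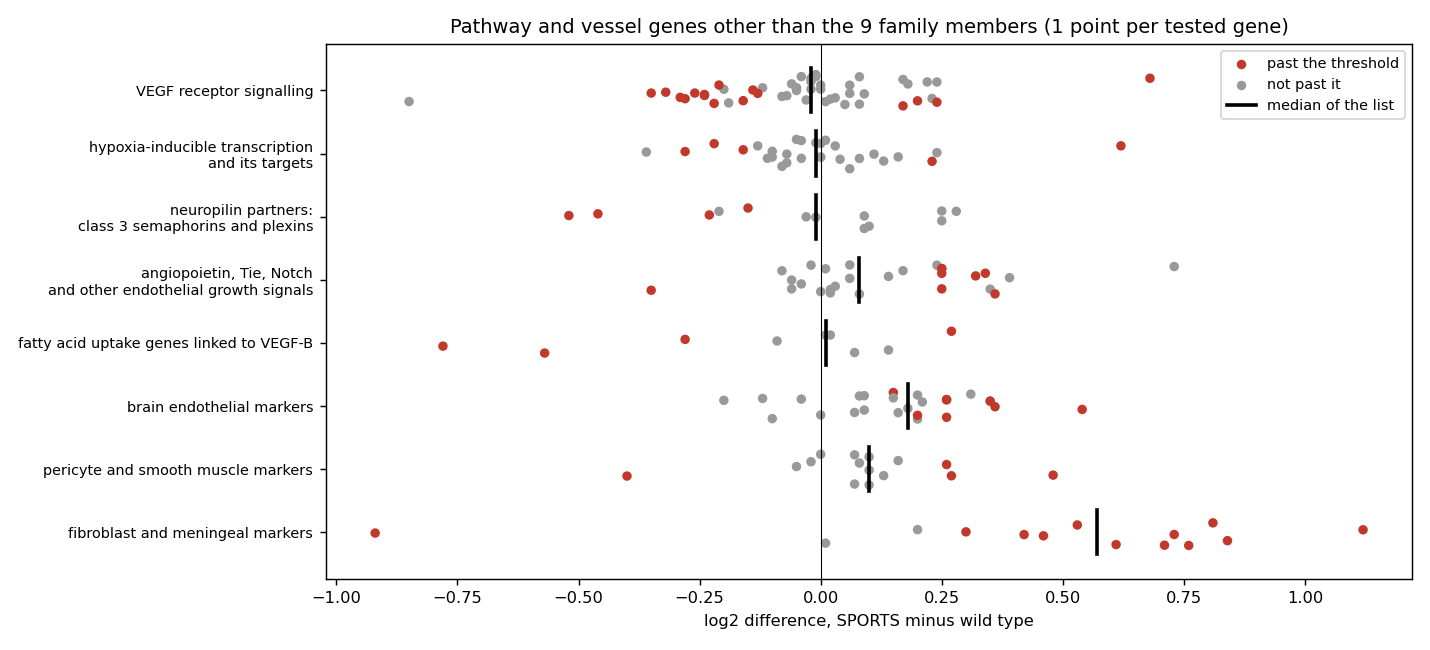
Difference in log2 signal, SPORTS minus wild type, of each tested gene of the pathway and vessel lists, 1 point per gene, red where it passed the threshold, with the median of each list as a black bar. The pathway lists have medians between -0.02 and 0.08, while the fibroblast and meningeal list has a median of 0.57.

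Cell type markers moved with the lines too, and their part in the values of Pgf, Kdr, Nrp1 and the pathway lists was not tested. Over all tested genes 24.3% passed, 12.9% higher and 11.4% lower, and 8.34% with slide row as a block. Brain endothelial markers, for the cells that carry Kdr and Flt1, had 8 rises and no fall among 25 tested (median 0.18), which is 32% called. Their summed signal was 35400 to 37400 in SPORTS and 33600 to 34200 in wild type, and all 25 were above background on all 6 arrays. With the block 1 was higher and 0 were lower. Fibroblast and meningeal markers had 11 rises and 1 fall among 14 (median 0.57), 85.7% called, with a summed signal of 47600 to 55300 in SPORTS and 33300 to 38400 in wild type. With the block 7 were higher and 1 lower. Dcn, a matrix proteoglycan, rose by 1.12 ± 0.05 (adjusted p = 0.000143) and Ogn, another, differed by -0.92 ± 0.11 (adjusted p = 0.0042). Pericyte and smooth muscle markers had 3 rises and 1 fall among 15 (26.7% called; 13600 to 13900 in SPORTS, 13100 to 13700 in wild type), and with the block 1 was higher and 0 were lower. Lymphatic endothelial markers had 1 rise among 3, and 1 with the block (3230 to 3780 in SPORTS, 2870 to 3230 in wild type).

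Markers of the brain's own cells were present in all arrays, with all 12 tested neuron, 10 astrocyte and 12 oligodendrocyte markers above background on all 6. Neuron markers had 2 rises and 2 falls (summed signal 235000 to 247000 in SPORTS and 245000 to 262000 in wild type). Astrocyte markers had 4 rises (314000 to 333000 in SPORTS and 280000 to 312000 in wild type), and oligodendrocyte markers 3 rises (320000 to 354000 in SPORTS and 313000 to 350000 in wild type). Microglia and macrophage markers had 2 falls among 12 (37100 to 38700 in SPORTS and 38500 to 41200 in wild type), and blood cell markers 2 rises among 7 (122000 to 219000 in SPORTS and 158000 to 190000 in wild type). The blood cell rises included Hba-a3, well above background on 3 SPORTS arrays and 0 wild type arrays (at least 16.4-fold higher in SPORTS). The other globin genes tested, Hbb and Hba-a1, differed by 0.08 and 0.03, without a call. With slide row as a block the counts were 0 for neuron markers in either direction, 1 higher for astrocyte, 1 higher for oligodendrocyte, 1 lower for microglia and macrophage and 2 higher for blood cell markers. Called shares without the block were 33.3% of neuron, 40% of astrocyte, 25% of oligodendrocyte, 16.7% of microglia and macrophage and 28.6% of blood cell markers, beside 24.3% of all tested genes. None of 12 choroid plexus markers passed, and their summed signal was 113000 to 231000 in SPORTS, lowest in SPORTS 1, and 223000 to 230000 in wild type.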

How the data were processed

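Arrays were 1-colour (Cy3) and 1 per rat. Spot intensity values were extracted by the authors with Agilent Feature Extraction 10.10.1.1, per the submitters' processing notes. Per the file headers, background was subtracted and arrays were not normalised to each other. A combined file that the authors deposited holds these intensities times a constant for each array (1.377 to 1.470), on a linear scale and not centred, with column medians of 394, 384 and 389 in SPORTS and 376, 376 and 382 in wild type. The origin of that constant is not stated.

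Of 62976 spots, 58717 were not controls and carried 30367 probes. Outlier-flagged spot values (3075) were dropped, log2 spots of a probe were averaged and the 75th percentile of the array (1530 to 1628) was subtracted. A probe counted as well above background on an array when over 0.5 of its spots did. Transcript accessions were matched to RefSeq genes, which named 18005 probes. The files carry no gene names and no probe sequences were used. The lines were compared with limma 3.58.1 in R 4.3.3 (files read with data.table, version 1.17.8), two-sided, adjusted by Benjamini-Hochberg over 20658 probes, at 0.05. For lists, a gene stands at its brightest tested probe. Figures and motif searches used Python 3.11.15 and matplotlib 3.10.9. The procedure was tested on simulated data.

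The family, 5 pathway lists and 10 cell type lists were chosen with earlier results of these data known. The text names every family probe, up to 4 passing genes of each pathway list with the largest differences, neighbours of Vegfb that passed and 5 probes that share its detection pattern. The genes directly beside Vegfb that did not pass, Vegfd, Nos3, Pik3cd, Sema3d, Slc27a3, Slc27a4 and the choice of marker genes shown lie outside that rule. They were chosen after their values were seen. Also tried were a median shift, quantile normalisation, normexp with an offset of 50 (on median spot brightness, as no mean signal was used), the deposited table, no filter and a filter on all 6 arrays, outlier spots kept, a trended robust variance, slide row as a block, the mean of a gene's probes and leaving out each array.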

Additional observations from a re-analysis of the deposited data

How the results depend on the processing

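The Vegfb difference of -8.39 was -4.72 after normexp, which raises dim signals by its offset, -8.47 to -8.31 without 1 array, and had no value under the filter on all 6 arrays, which removes the probe. That filter also left 0 family probes lower in SPORTS, against 1, the slide block gave 2 (Vegfb and Flt1), and leaving out 1 array gave 1 to 2. Family probes higher in SPORTS numbered 1, against 0 without the filter, 0 with the block and 0 to 2 without 1 array. Pathway genes that rose numbered 14, against 6 after a median shift, 3 without the filter, 5 with the block and 4 to 8 without 1 array. Those that fell numbered 23, against 12 without the filter, 4 with the block and 11 to 17 without 1 array. Over all probes, 2283 were higher, against 1235 without the filter, 741 with the block and 1356 to 1786 without 1 array, and 2081 were lower, against 1108, 856 and 1123 to 1558. Of 797 values under alternatives of the list genes that the naming rule takes, including marker genes not shown in the text, 649 kept their direction and side of the threshold, 147 kept the direction only, and 1 reversed, Nrcam at 0.54 with the mean of its probes. Fewer samples enter the fits without 1 array, and more probes enter without the filter. All 6 arrays enter the fit with slide row as a block, where the comparison of the lines rests on wild type 3 alone among wild type arrays. The cause of the changes in these counts was not tested. The remaining alternatives moved each of these counts by at most 1.5 times. Untested family probes have a value only without the filter. No paired analysis was possible because replicate numbers were given in the order of deposition and pair no rats. Signal over background limits Vegfb in SPORTS to a bound and leaves Nrp2 untested.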
